A study of Mus musculus with 8 samples.

Results

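Tip60 (encoded by Kat5) and Hdac6 were depleted singly and together in mouse embryonic stem cells (ESCs), and the question addressed here is whether the effects of both knockdowns (KDs) on RNA levels add up. All 8 arrays of the series (8 of 8) were used, in 4 groups of 2. EGFP KD, called control KD here, received a hairpin against a gene that ESCs lack. Tip60 KD and Hdac6 KD received the hairpin against 1 gene, and Tip60Hdac6 KD, called double KD here, received both. The cells were labelled E14, grew without feeders on gelatin in medium with serum and LIF, were infected with lentivirus carrying short hairpin RNAs and were collected 72 hours after infection. A single hairpin per gene was used, so hairpin and target gene cannot be told apart on these arrays. Beside them, the paper measured some target genes by RT-qPCR in Hdac6 mutant ESC lines. It reported changes there similar to those of Hdac6 KD. All 4 groups were infected, but how virus was divided between hairpins in double KD is not given in the sources used here, so virus dose and the combination of targets cannot be told apart. Replicates carry the letters A and B. Each letter was 1 slide holding 1 array of every group, always in the same place on the slide, so that place and group cannot be told apart. The study's methods call them biological replicates, while the labels do not say what was kept separate, and p-values measure the spread between these samples.

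Tip60 is the acetyltransferase of the Tip60-p400 complex, which acetylates histones, exchanges histone variants and, in ESCs, represses many differentiation genes. Hdac6 is a class II deacetylase best known for acting on tubulin and other cytoplasmic proteins. Where factors act through the same step on a gene, removing both is commonly compared with removing each: equal effects, summed effects and effects larger than the sum are the usual outcomes of such an epistasis design.

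For each of 18104 genes the interaction term was computed on the log2 scale as double KD minus Tip60 KD minus Hdac6 KD plus control KD. A term of 0 means that the double KD equals the sum of the single changes. A positive term means that the double KD level lay above that sum, and a negative term that it lay below it. Levels are log2 intensities relative to the 75th percentile of the array, so a level of 0 is that percentile, and values below −2.71 were set to this floor. A gene was called at a Benjamini-Hochberg adjusted p below 0.1 in limma, the study's own threshold. Of the genes tested, 3989 (22%) had a called term, 2016 positive (11.1%) and 1973 negative (10.9%). With the replicate letter as a block, 8532 genes (47.1%) were called, and all 3989 were among them with the same sign. Each letter holds 1 array of every group, so the block leaves the term of a gene measured on all arrays unchanged. The same sign is thus fixed by the design and is no support. Scaling each array to its median in place of the 75th percentile ended every call in limma (0 genes, with 1614 at an unadjusted p below 0.05), while the median term over all genes moved only from −0.04 to 0.05. Leaving out 1 array gave 2004 to 2757 calls. The median absolute term of the called genes was 0.70, and 727 of them reached 1. In 200 of the 2016 called positive genes the level that the summed changes give lay below the floor, so that an additive double KD could not have been recorded and part of the term is fixed by the floor. This held for no called negative gene.

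The targeted transcripts were checked first. Kat5 had log2 levels of 1.34 and 1.37 with the control hairpin, 0.00 and 0.01 with the Tip60 hairpin, 1.52 and 1.53 with the Hdac6 hairpin and −0.11 and 0.20 with both. Kat5 thus stood at 39.2% of control in Tip60 KD and 40.4% in double KD, and its term of −0.12 ± 0.39 (95% confidence interval, adjusted p = 0.688) was not called. Hdac6 had log2 levels of 2.21 and 2.18 with the control hairpin, 1.74 and 1.77 with the Tip60 hairpin, −0.28 and −0.32 with the Hdac6 hairpin and 0.30 and 0.34 with both. Hdac6 was thus at 73.9% of control in Tip60 KD, 17.8% with its own hairpin alone and 27.3% in double KD. The double KD kept more Hdac6 transcript than Hdac6 KD by 0.62 ± 0.17 (adjusted p = 0.0147), and Hdac6 itself had a positive term of 1.05 ± 0.24 (adjusted p = 0.00764). A second probe gave 0.97 for Hdac6 and −0.22 for Kat5. The double KD was therefore a shallower Hdac6 knockdown than Hdac6 KD at the RNA level, and its part in the terms below was not tested.

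Terms were computed within each letter as well. Across 17935 genes with a value on all arrays, the terms of letters A and B had a Pearson correlation of 0.74 across genes, which are not independent replicates. The correlation was 0.89 among the 6035 genes of highest signal and 0.51 among the 6035 of lowest, where 9.83% of genes were called against 28.2% in the highest. All 3955 called genes with a term in both letters had the same sign in both. A call requires a term that is large against the spread between these same arrays. The shared sign therefore follows largely from the call and is no separate support.

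**Figure D1:**
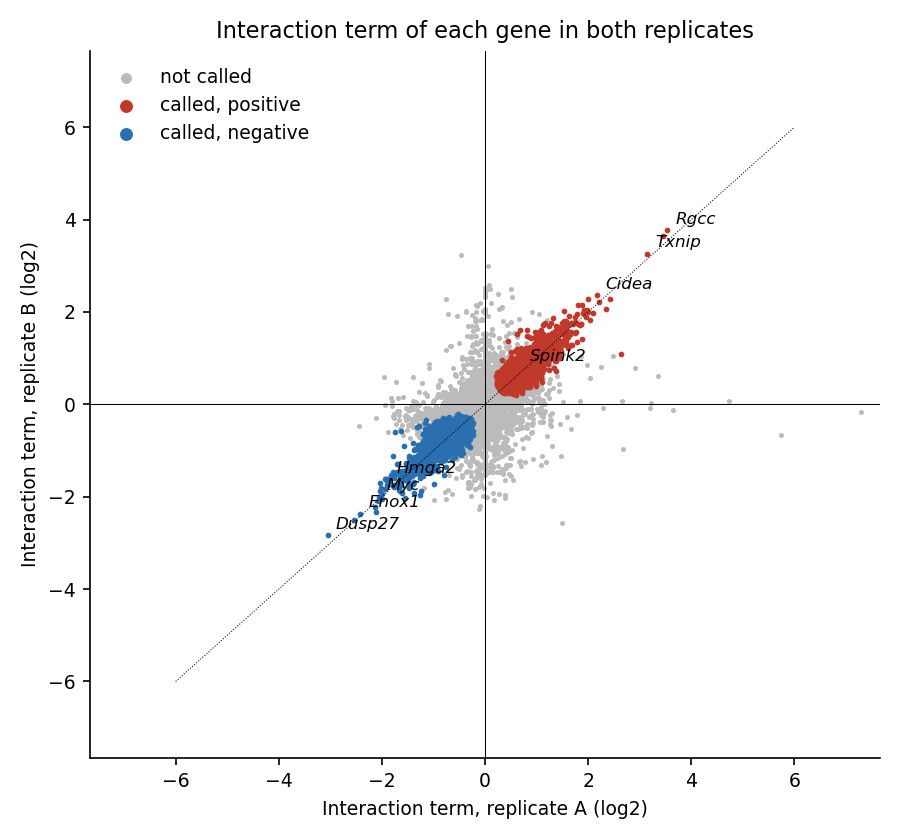
Interaction term (log2) of every gene in replicate A (horizontal axis) and replicate B (vertical axis). Grey points are not called, red are called positive and blue called negative, and the dotted line marks equal terms. Called genes lie along the line in both directions, with Rgcc (3.65 over both letters) and Dusp27 (−2.95) at the ends. The grey points include genes with a large term in 1 letter only.

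Among the called genes, the direction of the term was mostly against the direction of the single changes. The term and the summed single changes share the control and single KD arrays, with opposite signs. Error in these arrays alone can therefore set the term against the single changes. The counts that follow describe the called genes and are no test of direction. In 2813 called genes both single KDs moved the gene the same way, past the threshold each, and the term ran against them. In 2424 of these the double KD was called the same way too, in 388 it was not called against control KD, and in 1 it was called the other way. Over these 2813 genes the median double KD change was 0.73 times the larger single change and 0.43 times the sum of both, and in 201 the double KD change exceeded each single change. A gene changed only by Tip60 KD made up 699 of the called terms, in 428 of which double KD was not called against control KD, in 249 called the same way and in 22 the other way. A gene changed only by Hdac6 KD made up 358, in 285, 60 and 13 of which the double KD fell into these classes. The singles were called in opposite directions in 22 further genes, and neither was called in 80. Beyond the sum of the single changes went 17 called genes (0.43% of the called), a count that the shared arrays lower as well. These 17 were set apart first, whatever the calls of their single KDs, and are in none of the other classes.

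**Figure D2:**
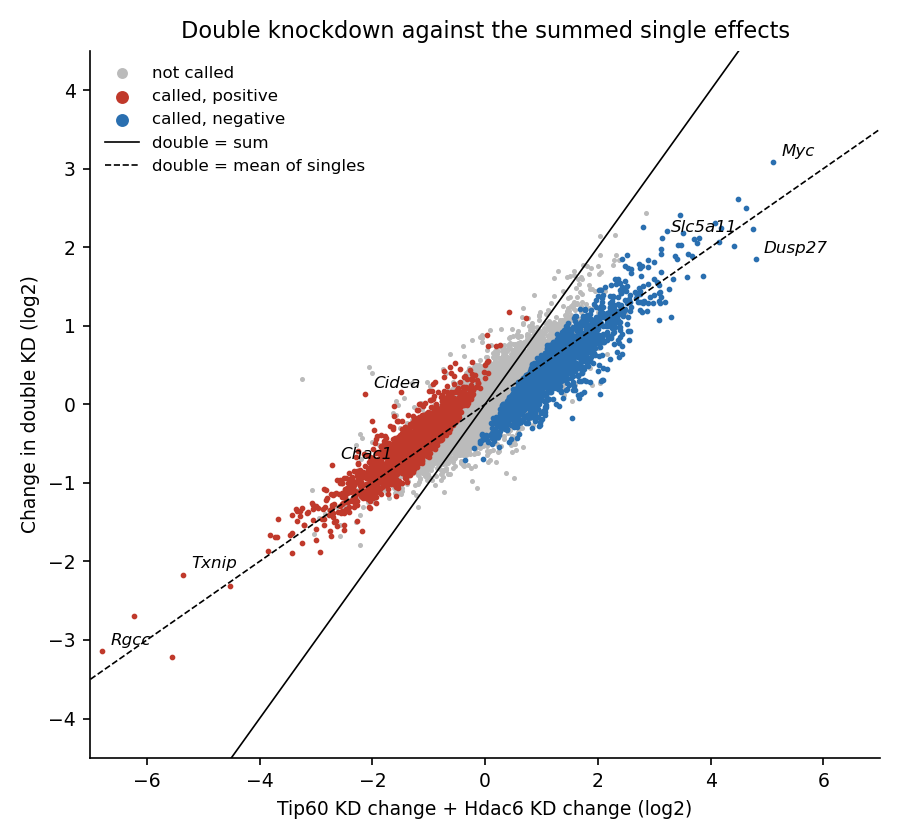
Change in double KD against control KD (vertical axis, log2) against the Tip60 KD change plus the Hdac6 KD change (horizontal axis, log2) for every gene. The solid line marks additivity and the dashed line the mean of both single changes. Called genes run along the dashed line, with Myc at the upper and Rgcc at the lower end. Both axes subtract the same control KD arrays.

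The term contains the control KD arrays once and each of the 3 changes contains them too, so a gene that stands apart in control KD alone can take a called term. A comparison without them, double KD against the mean of the 2 single KDs, gave 101 called genes (0.558%), 47 higher and 54 lower in double KD. Of the 3989 genes with a called term, 71 were also called here and 3918 were not. The number called in this comparison was 3319 with the replicate block, and 0 to 7 when any 1 array was left out.

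Most of the largest positive terms belonged to genes that each single KD lowered. Cidea, given below, was the exception, since Tip60 KD did not lower it. Rgcc, a regulator of the cell cycle that responds to p53 (probe at chr14:79688717-79688776, mm9), had log2 levels of 1.42 and 1.43 with the control hairpin, −1.73 and −1.96 with the Tip60 hairpin, −2.05 and −2.15 with the Hdac6 hairpin and −1.67 and −1.75 with both. All 6 knockdown arrays lay more than 3 log2 units below both control KD arrays, and the double KD lay no lower than either single. Its term was 3.65 ± 0.35 (adjusted p = 0.00289). The level that the summed changes give, −5.37, lies below the floor, so at least 2.66 of this term is fixed by the floor and its size is not a measure of departure from additivity. Txnip, an alpha-arrestin that binds thioredoxin and limits glucose uptake (chr3:96365147-96365206), had 4.57 and 4.43 with the control hairpin, 1.78 and 1.49 with the Tip60 hairpin, 2.12 and 1.88 with the Hdac6 hairpin and 2.47 and 2.19 with both. Every knockdown group was separate from control KD, the double KD had the highest mean of the 3, and the term was 3.20 ± 0.55 (adjusted p = 0.00744). A second Txnip probe gave 2.03.

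Gstm3, a glutathione transferase, fell by 2.56 with the Tip60 hairpin, by 1.97 with the Hdac6 hairpin and by 2.32 with both, with a term of 2.21 ± 0.60. Its other probe read a term of 0.44 (adjusted p = 0.118), so the size rests on 1 probe. Adssl1, the muscle form of adenylosuccinate synthase, fell by 2.31, 1.50 and 1.67 in these groups, with a term of 2.14 ± 0.40 of which 1.02 is fixed by the floor. Ddit4, an inhibitor of mTORC1 that stress induces, fell by 2.14, 1.58 and 1.68, with a term of 2.04 ± 0.27. In all of these genes the double KD change lay between the single changes.

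Some genes fell further in Hdac6 KD, and in the double KD they stood at or near the Tip60 KD level. Cidea, a lipid droplet protein, had log2 levels of −0.04 and −0.24 with the control hairpin, 0.18 and −0.10 with the Tip60 hairpin, −2.26 and −2.65 with the Hdac6 hairpin and 0.13 and −0.16 with both. Hdac6 KD alone stood apart, by more than 2 log2 units, while the other 3 groups overlapped. The term was 2.26 ± 0.66 (adjusted p = 0.00971), and double KD exceeded Hdac6 KD by 2.44 (adjusted p = 0.0056). Stra8, which germ cells need to enter meiosis, fell by 1.46 with the Tip60 hairpin, 2.20 with the Hdac6 hairpin and 1.47 with both. Syce3, a protein of the synaptonemal complex, fell by 1.35, 1.99 and 1.33, and its additive level was also below the floor. Zfp787, a zinc finger gene, fell by 1.14, 2.14 and 1.36, with a term of 1.92, but its other probe read −0.09 and was not called. Aurkc, the Aurora kinase of meiosis, was picked after its values were seen and had changes of −0.97, −2.18 and −1.37, the double KD lying between the singles. The ferritin-like genes Fthl17d, Fthl17e and Fthl17f were also picked after their values were seen. Fthl17e changed by −1.61 with the Hdac6 hairpin and −0.02 with both, Fthl17d by −1.58 and −0.14 and Fthl17f by −1.21 and −0.02, but these family members are so alike that probes may read several of them.

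The largest negative terms belonged to genes that each single KD raised. Dusp27, an atypical dual-specificity phosphatase (chr1:168028972-168029031), had log2 levels of −2.59 and −2.55 with the control hairpin, −0.03 and −0.17 with the Tip60 hairpin, −0.18 and −0.29 with the Hdac6 hairpin and −0.68 and −0.75 with both. The double KD lay above control KD and below both single KDs without overlap. The term was −2.95 ± 0.30 (adjusted p = 0.00289), and double KD was 0.55 below the mean of the singles (adjusted p = 0.0924). The control KD level of Dusp27 was close to the floor of −2.71.

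Myc, a transcription factor for growth (chr15:61821417-61821476), had log2 levels of 0.34 and 0.26 with the control hairpin, 3.57 and 3.33 with the Tip60 hairpin, 2.35 and 2.16 with the Hdac6 hairpin and 3.52 and 3.23 with both. The double KD overlapped Tip60 KD, and both lay above Hdac6 KD. The term was −2.03 ± 0.49 (adjusted p = 0.008). Gbx2, a homeobox gene that sustains ESC self-renewal, rose by 1.53 and 1.56 in the single KDs (Tip60 first) and by 1.07 with both hairpins, with a term of −2.02 ± 0.37. Enox1 rose by 2.08, 2.34 and 2.02 and Lcmt2 by 1.87, 1.99 and 1.64 in the same order. Napsa, an aspartic protease, rose by 1.77, 1.81 and 1.62, and Itpk1, an inositol phosphate kinase, rose by 1.58, 1.61 and 1.30. Jrk rose by 1.50, 1.79 and 1.11, and Wdr6 by 1.84, 1.26 and 1.28. In these 6 genes the double KD change was far below the sum, and in all but Wdr6 its mean was below each single change as well.

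**Figure D3:**
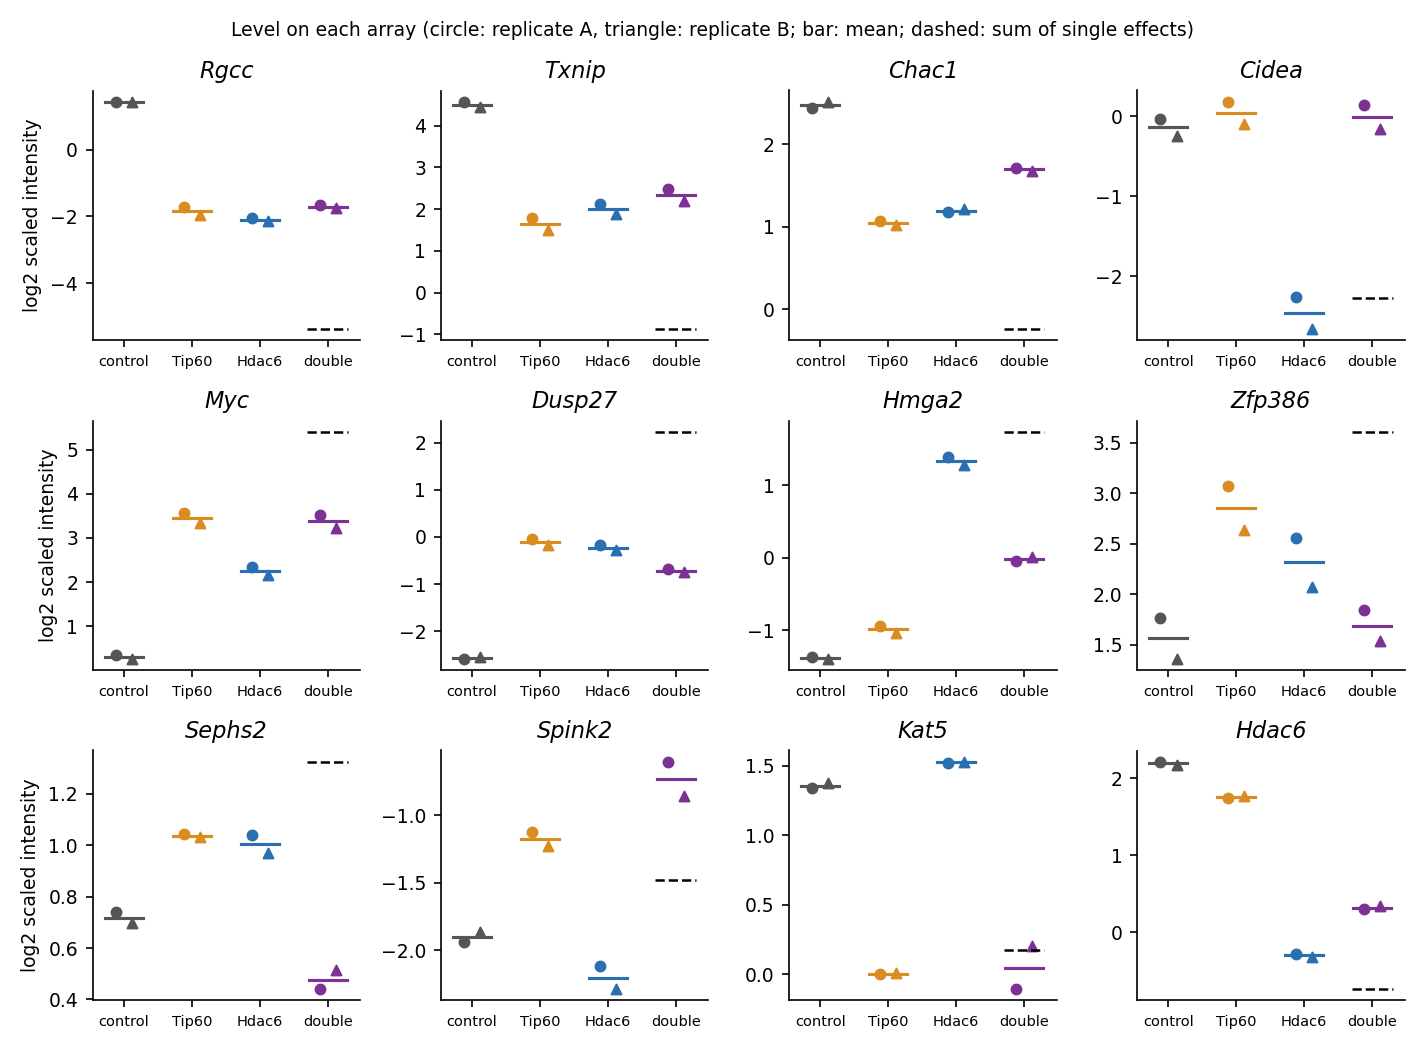
Log2 intensity relative to the 75th percentile on each of the 8 arrays for 12 genes (circles, replicate A, and triangles, replicate B). Solid bars are group means of 2 arrays and the dashed line is the double KD level that the summed single changes give, which for Rgcc is below the floor. The double KD is far above that line for Rgcc, Txnip, Chac1 and Cidea, far below it for Myc, Dusp27, Hmga2, Zfp386 and Sephs2, above it for Spink2, near it for Kat5 and above it for Hdac6. Vertical axes differ between genes.

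Among called genes whose single KDs differed from each other, the double KD was mostly nearer to Tip60 KD. Of 115 called genes above the floor on all arrays with singles at least 1 log2 unit apart, the double KD level was nearer to Tip60 KD in 98 and nearer to Hdac6 KD in 17. The count was 98 in letter A and 95 in letter B. Among the 45 genes in which Hdac6 KD had the larger change, 42 were nearer to Tip60 KD, and among the 70 in which Tip60 KD had the larger change, 56 were. These genes were chosen by a called term, which itself enters the distance of double KD from each single KD. A term against a large Hdac6 KD change moves double KD towards Tip60 KD, so the counts are a description and no test. Double KD also kept more Hdac6 transcript than Hdac6 KD, and its part here was not tested. Hmga2, a chromatin protein of early development, lay between. Its log2 levels were −1.37 and −1.39 with the control hairpin, −0.94 and −1.03 with the Tip60 hairpin, 1.40 and 1.29 with the Hdac6 hairpin and −0.05 and 0.02 with both. No 2 groups overlapped, and the term was −1.75 ± 0.28 (adjusted p = 0.00705). At the other Hmga2 probe control KD and Tip60 KD were at the floor, and the term was −1.17. Its change was 1.20 in Hdac6 KD and 0.02 in double KD, so the place between the singles rests on 1 probe. Lefty1, a Nodal inhibitor, rose by 0.58 with the Tip60 hairpin, 1.44 with the Hdac6 hairpin and 0.51 with both. Calcoco2, an autophagy receptor, rose by 2.86, 0.65 and 2.18, and Tppp3, a tubulin-binding protein, by 2.50, 0.49 and 1.81.

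The share of a single KD's change that was seen when it was added to the other was also measured, in genes called in 1 single KD only with a change of at least 1 log2 unit and above the floor on all arrays. The numerator and denominator share no array. In 43 genes of Hdac6 KD, a median of 23.6% of the change was kept when Hdac6 was depleted beside Tip60 (24.4% in letter A, 24.8% in letter B), and 35 genes kept under 50%. In 174 genes of Tip60 KD, a median of 51.7% was kept beside Hdac6 depletion (53.7% and 51.4%), and 85 kept under 50%. The Hdac6 transcript itself kept 57.7% of its fall and the Kat5 transcript 109%. Choosing genes by a large change favors shares below 100% in both sets, and the difference between them was not tested. Spic, a transcription factor that Tip60 KD raised by 2.35, rose by 2.16 in double KD, and Notch4, a Notch receptor, rose by 2.32 and 1.46. Both were picked after their values were seen.

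Gene lists were used to describe which functions held called terms. The lists were chosen with earlier results of these data known, and their counts are set beside the shares over all genes (11.1% positive, 10.9% negative) and the median term of all genes (−0.04). No list was tested against other lists. In the comparison without control KD arrays, double KD against the mean of the singles, the list medians lay between −0.095 and 0.188. That median was 0.078 for the Atf4 stress response, 0.064 for p53 targets and 0.008 for ribosomal proteins. For primed epiblast markers it was −0.004 and for ribosome biogenesis factors −0.059. The list terms therefore do not show that double KD itself stood apart from the single KDs.

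Genes of the Atf4 stress response, which the transcription factor Atf4 induces when amino acids run short or proteins misfold, had the largest share of positive terms among lists of 10 or more genes. Of 24 tested, 12 had a called positive term (50%) and 1 a negative, with a median term of 0.70 (0.66 in letter A and 0.72 in letter B). Their median change was −0.74 in Tip60 KD and −0.56 in Hdac6 KD. The positive count was 8 to 12 when any 1 array was left out, and 16 with the replicate block. Atf4 itself had log2 levels of 4.64 and 4.46 with the control hairpin, 3.81 and 3.88 with the Tip60 hairpin, 3.45 and 3.59 with the Hdac6 hairpin and 4.04 and 4.07 with both. All knockdown arrays lay below control KD, and both double KD arrays lay above those of the singles, called against Hdac6 KD (adjusted p = 0.0386) and not against Tip60 KD (adjusted p = 0.34). The term was 1.24 ± 0.33 (adjusted p = 0.00911), while a second Atf4 probe gave 0.54. That probe changed by −0.05 with the Tip60 hairpin, −0.55 with the Hdac6 hairpin and −0.06 with both. The Atf4 fall with the Tip60 hairpin and with both hairpins therefore rests on 1 probe. So does the place of double KD above Tip60 KD. Chac1, which degrades glutathione, had 2.43 and 2.51 with the control hairpin, 1.07 and 1.01 with the Tip60 hairpin, 1.17 and 1.21 with the Hdac6 hairpin and 1.71 and 1.68 with both. Its term was 1.93 ± 0.25 (adjusted p = 0.00502), and the double KD was above the mean of the singles by 0.58 (adjusted p = 0.0731). Ddit4, Trib3, a pseudokinase that dampens the response (term 1.26), Atf5 (1.20), Vldlr (1.17), Nupr1 (1.14) and Slc6a9 (0.92) were called too. The biosynthetic members Psph (0.89), Asns (0.84), Psat1 (0.77) and Cth (0.67) had smaller called terms. Slc7a3, an arginine transporter, was the exception with −0.65, after rising in both single KDs.

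The 250 bases before the transcription start were searched for the Atf4 element, spelled TGATGNAA, on both strands, since these genes moved together. RefSeq windows were found for 21 of the 24 tested members and 6 held a match, among them 4 of the 11 called positive with a window. Of all 27025 genes with a window, 3.91% had a match. Windows of the 4 called genes with a match are given 5′ to 3′ on the gene's strand, GRCm38.p6, with the match in capitals (on either strand). A match is a description of the letters and says nothing of binding.
Chac1 (chr2:119350992-119351241, plus strand): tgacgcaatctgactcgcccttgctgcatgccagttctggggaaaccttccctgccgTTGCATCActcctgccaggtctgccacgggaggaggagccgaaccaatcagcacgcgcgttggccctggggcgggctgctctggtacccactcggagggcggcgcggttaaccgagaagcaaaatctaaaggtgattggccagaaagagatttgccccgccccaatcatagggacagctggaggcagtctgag
Vldlr (chr19:27216770-27217019, plus strand): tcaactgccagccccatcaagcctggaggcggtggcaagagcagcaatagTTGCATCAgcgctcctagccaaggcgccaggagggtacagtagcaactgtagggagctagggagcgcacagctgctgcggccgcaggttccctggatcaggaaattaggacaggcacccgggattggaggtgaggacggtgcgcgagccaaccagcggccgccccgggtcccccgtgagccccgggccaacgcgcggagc
Nupr1 (chr7:126625471-126625720, minus strand): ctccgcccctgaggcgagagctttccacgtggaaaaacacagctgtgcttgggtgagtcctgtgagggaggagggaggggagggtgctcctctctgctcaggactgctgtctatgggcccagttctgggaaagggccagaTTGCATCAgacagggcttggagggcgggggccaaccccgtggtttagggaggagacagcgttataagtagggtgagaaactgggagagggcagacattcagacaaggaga
Asns (chr6:7693210-7693459, minus strand): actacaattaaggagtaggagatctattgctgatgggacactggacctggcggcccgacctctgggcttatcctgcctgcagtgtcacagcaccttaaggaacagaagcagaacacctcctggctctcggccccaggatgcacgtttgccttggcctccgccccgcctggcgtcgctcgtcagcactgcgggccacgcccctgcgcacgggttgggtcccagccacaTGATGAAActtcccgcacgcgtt

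The p53 targets, genes that p53 induces after damage, also had more positive than negative terms. Of 27 tested, 12 had a called positive term and 1 a negative one (Xpc, −0.31), with a median term of 0.41. Their median change was −0.60 with the Tip60 hairpin and −0.40 with the Hdac6 hairpin, and Ddit4 belongs to both lists. The called members included the death receptor gene Tnfrsf10b, with changes of −1.89 with the Tip60 hairpin, −0.94 with the Hdac6 hairpin and −1.10 with both and a term of 1.73 ± 0.34. Bbc3, which encodes the cell death protein Puma, had −1.36, −0.92 and −0.89 with a term of 1.39. Plk2 (1.38), Trp53inp1 (0.95), Mdm2 (0.87), the main inhibitor of p53, and Zmat3 (0.80) followed. Gdf15, a stress cytokine, had a term of 1.79, but 1 of its arrays was at the floor and its additive level lay below it. The count of positive p53 targets was 5 to 8 when any 1 array was left out.

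Metabolic genes and ribosomal proteins also leaned to positive terms. Their signal was high, with median levels of 4.42 for glycolysis, 3.88 for oxidative phosphorylation and 6.69 for ribosomal proteins. When only genes above the floor on all 8 arrays were fitted, 15.8% of them were positive. In that fit the positive counts of these lists were 8 of 23, 17 of 57 and 33 of 85. Of 25 glycolysis genes 7 were called positive and none negative, with a median of 0.25. Aldoc, an aldolase, had log2 levels of 2.67 and 2.73 with the control hairpin, 1.28 and 1.43 with the Tip60 hairpin, 1.26 and 1.39 with the Hdac6 hairpin and 1.29 and 1.46 with both. The 3 knockdown groups overlapped one another and none overlapped control KD, and the term was 1.39 (adjusted p = 0.00879). Pfkfb3, which activates glycolysis through fructose bisphosphate, had a term of 1.54, and Ldhb one of 1.17. Of 58 oxidative phosphorylation genes 13 were called positive and 4 negative. Atp5g1, a subunit of the ATP synthase ring, had the largest negative term of them at −1.70, but its other probe read −0.26 and a fall in Tip60 KD. Of 86 ribosomal proteins 27 were called positive and 1 negative (median 0.30), with Rpl39l at 1.08 and Rpl32 at 0.83. The positive count of ribosomal proteins was 8 to 16 when any 1 array was left out. It was 10 with the authors' value table, where 8.33% of all genes were positive. Ribosomal protein probes can read the many processed copies of these genes. Of 5 alpha-arrestins 3 were called positive, Txnip, Arrdc4 (1.15) and Arrdc3 (0.49).

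Negative terms were frequent among genes that both KDs raised. Of 15 markers of primed epiblast, the state that follows the ESC ground state, 7 were called negative and none positive, with a median of −0.37. Foxd3, a forkhead factor, had log2 levels of −0.54 and −0.87 with the control hairpin, 1.79 and 1.72 with the Tip60 hairpin, 0.95 and 0.86 with the Hdac6 hairpin and 1.61 and 1.59 with both. The double KD lay below Tip60 KD and above Hdac6 KD, and the term was −1.77 (adjusted p = 0.0079). Tcf15 (−1.24), Sox4 (−1.15, where other probes read −0.21, not called, and −0.39), Fgf15 (−0.98), Cdh2 (−0.90), Sall2 (−0.80, with control KD at the floor) and Zic2 (−0.64) made up the rest. Of 32 ribosome biogenesis factors 11 were called negative and 1 positive (median −0.25). Pes1, a factor for the large ribosomal subunit, had −1.68, but its other probe read 0.16. Nop16 followed with −1.04 and Polr1b, a subunit of RNA polymerase I, with −0.84. The positive one was Nop10 at 0.65.

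In the Nodal and Lefty pathway 7 of 15 were called negative and 3 positive. Lefty2 had a term of −2.12 from 7 arrays, since 1 double KD array gave no value, and Lefty1 had −1.52. Others called negative included Foxh1, a partner of Smad factors, at −1.07, Nodal at −0.80, Gdf3 at −0.68 and the co-receptor Tdgf1 at −0.49. The receptors Acvr1b (0.64) and Acvr2b (0.55) and the repressor Skil (0.89) were called positive, but the second Skil probe read −0.64. The median of this pathway was 0.09 in letter A, where Lefty2 and Tdgf1 had no term, and −0.28 in letter B, and was 0.22 over the 12 members above the floor on all arrays, so it had no settled direction.

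Intermediate filaments had 6 of 14 called negative and 3 positive. The neurofilament gene Nefh rose by 2.29 with the Tip60 hairpin, 1.41 with the Hdac6 hairpin and 2.11 with both, with a term of −1.60, and Nefl had −1.05. Krt7 was at the floor in all 3 knockdown groups, so its called term of 0.52 is set by the floor. The same holds for Fos, an early response gene, at 1.26. Tubulins and microtubule proteins had 9 of 28 called negative and 2 positive, led by Stmn3 (−1.52) and Tppp3 (−1.18). Of 18 let-7 targets and oncofetal genes 6 were called negative and 2 positive. Ccnd2, a cyclin, had −1.95, with both control KD arrays at the floor, and Igf2bp3, an RNA-binding protein, had −1.16. Dicer1, which makes microRNAs, had 0.77.

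The counts of several lists moved by over 1.5 times. When any 1 array was left out, 2 to 9 oxidative phosphorylation genes and 2 to 5 sterol and fatty acid synthesis genes were called positive, and 4 to 7 ribosome biogenesis factors negative. In the same fits 4.92% to 8.07% of all genes were positive and 6.16% to 8.03% negative. Without Hdac6 KD replicate B, 2 of 58 oxidative phosphorylation genes were positive beside 4.92% of all genes, so that list's lean to positive terms was lost. With the replicate block, where 22.6% of all genes were positive and 24.6% negative, the positive counts were 20 p53 targets, 41 ribosomal proteins and 35 oxidative phosphorylation genes, and the negative counts 17 ribosome biogenesis factors and 10 primed epiblast markers. Positive and negative counts under the block were 13 and 2 for glycolysis, 14 and 11 for sterol synthesis, 72 and 106 for Zfp genes, 4 and 12 for tubulins, 4 and 9 for let-7 targets, 9 and 6 for G2 and mitosis genes, 12 and 12 for DNA replication and 6 and 9 for heat shock proteins. They were 8 and 8 for pluripotency factors, 4 and 5 for Tip60-p400 subunits and for deacetylases alike, 6 and 13 for proteasome subunits, 7 and 12 for splicing factors, 5 and 8 for the Nodal and Lefty pathway and 4 and 7 for intermediate filaments.

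**Figure D4:**
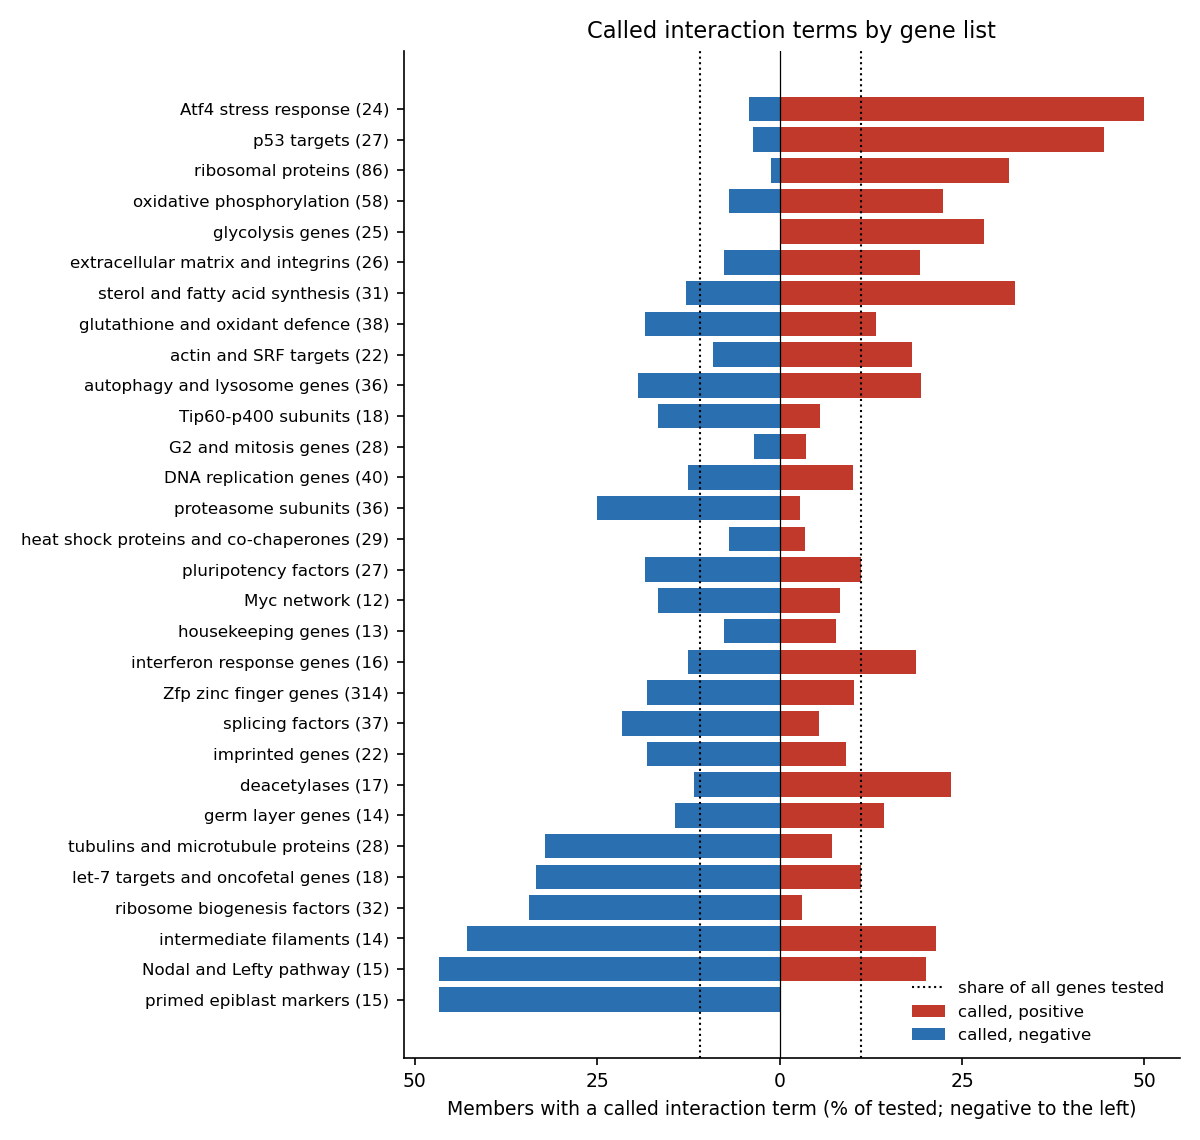
Members of each gene list with a called interaction term, as a percentage of those tested (number in parentheses), positive to the right in red and negative to the left in blue, sorted by median term. Dotted lines mark 11.1% and 10.9%, the shares of all genes. Atf4 stress response genes reach 50% positive, and primed epiblast markers 46.7% negative with none positive.

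Zfp zinc finger genes, many of which encode KRAB repressors, had 57 of 314 called negative (18.2%) and 32 positive (10.2%). In 3 of those with large negative terms the double KD was not called against control KD. Zfp386 had log2 levels of 1.76 and 1.36 with the control hairpin, 3.07 and 2.63 with the Tip60 hairpin, 2.56 and 2.07 with the Hdac6 hairpin and 1.85 and 1.53 with both. The double KD overlapped control KD and neither single KD did. The term was −1.92 ± 0.88 (adjusted p = 0.0245). Zfp534 rose by 1.20 and 0.85 in the single KDs (Tip60 first) and differed from control by 0.30 in double KD, and Zfp600 by 1.20, 0.96 and 0.44. The other probes of Zfp386 read terms of −0.34 and −0.28 and that of Zfp534 −0.23, none called. These genes lie in families of near-identical copies, so 1 probe may read several.

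Other lists had smaller counts or members in both directions. G2 and mitosis genes had 1 positive and 1 negative of 28, DNA replication genes 4 and 5 of 40, heat shock proteins and co-chaperones 1 and 2 of 29, and pluripotency factors 3 and 5 of 27. Hsph1, a chaperone cofactor, was the largest heat shock member at −1.22. Pou5f1, the core pluripotency factor Oct4, had log2 levels of 3.16 and 3.13 with the control hairpin, 4.17 and 4.13 with the Tip60 hairpin, 3.68 and 3.55 with the Hdac6 hairpin and 3.93 and 3.60 with both. It rose in all 3 knockdown groups, with a term of −0.85 (adjusted p = 0.0306). Tip60-p400 subunits had 1 positive and 3 negative of 18, namely Morf4l1 (0.55), Yeats4 (−1.12), Actl6a (−0.72) and Mrgbp (−0.47). Proteasome subunits had 9 negative and 1 positive of 36, led by Psmd14 (−1.04), and splicing factors 8 negative and 2 positive of 37. Srsf6 led the latter with −1.33, but its other probe read 0.08. Sterol and fatty acid synthesis had 10 positive and 4 negative of 31, with Msmo1 at 1.08 and Scd1 at 0.80. Deacetylases had 4 and 2 of 17, Hdac6 and Sirt4 (1.05) the largest, but the other Sirt4 probe read 0.27 and was not called. Hdac6 counts among the positive although its own hairpin targets it.

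The double KD lay above both singles, with both differences called, in 16 genes (0.0884%) and below both in 49 (0.271%). Aass, a lysine-degrading enzyme, had log2 levels of −0.04 and −0.08 with the control hairpin, −0.25 and −0.19 with the Tip60 hairpin, −0.89 and −0.75 with the Hdac6 hairpin and 0.15 and 0.24 with both. The double KD exceeded every other array, by 0.71 over the mean of the singles (adjusted p = 0.0731), and the term was 1.18 ± 0.29. Slc5a11, an inositol transporter, had −2.13 and −2.20, −0.65 and −0.63, −0.58 and −0.51, and −0.06 and −0.05 in control, Tip60, Hdac6 and double KD. It rose furthest in double KD, yet by less than the sum, with a term of −1.03 ± 0.25. Myl9, a myosin light chain with control KD at the floor, was above both singles with a term of −0.01 that was not called.

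Below both singles lay Sephs2, which makes selenophosphate, with 0.74 and 0.70 with the control hairpin, 1.04 and 1.03 with the Tip60 hairpin, 1.04 and 0.97 with the Hdac6 hairpin and 0.44 and 0.51 with both. Each single KD raised it and the double KD brought it below control KD, a double KD difference of −0.24 (adjusted p = 0.0643), with a term of −0.85 ± 0.26 (adjusted p = 0.0104). Clns1a, a cofactor of the arginine methylation of spliceosome proteins, rose by 0.37 and 0.48 in the singles and was at −0.06 in double KD, not called. Asl, of the urea cycle, changed by −0.24, −0.19 and −0.74, and its term of −0.32 was not called (adjusted p = 0.109). Ifi30, a lysosomal thiol reductase, changed by −0.57, −0.38 and −0.96, and its term of −0.02 ± 0.27 was not called either. Hat1, a histone acetyltransferase, changed by −0.39, −0.49 and −0.91 with a term of −0.04, but its other probe read 0.99 (adjusted p = 0.0143).

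Of the 17 genes beyond the sum, 9 had names, and their terms were small, the largest absolute value among all 17 being 0.85. Spink2, a protease inhibitor of the male germ line, had log2 levels of −1.94 and −1.86 with the control hairpin, −1.12 and −1.23 with the Tip60 hairpin, −2.12 and −2.29 with the Hdac6 hairpin and −0.60 and −0.85 with both. The double KD was the highest group without overlap, with a term of 0.75 ± 0.41 (adjusted p = 0.037). Insig1, which retains the sterol sensor Scap, had −0.89 and −0.86 in control KD, changed by −0.05 and 0.07 in the singles and rose by 0.54 in double KD, with a term of 0.51 ± 0.35 (adjusted p = 0.0685). Jam3, a junction protein, changed by 0.44 with the Tip60 hairpin, −0.39 with the Hdac6 hairpin and 0.55 with both. Its single changes nearly cancel in the sum, and double KD was not called against Tip60 KD (difference 0.10, adjusted p = 0.623). Cpm also had singles in opposite directions and a double KD that was not called against Tip60 KD (0.10, adjusted p = 0.745). Cpm, Dglucy and Ucma had terms of 0.55, 0.49 and 0.38 with 1, 1 and 4 arrays at the floor. The other Dglucy probe read −0.28 and was not called. The Ucma term turned negative in 4 alternatives, among them the authors' value table (−0.54) and the low floor (−1.81), so its direction is not settled.

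One knockdown's effect turned its direction beside the other knockdown, called both ways, in 380 genes with a called term. This was the Hdac6 effect in 167 and the Tip60 effect in 233, with 20 genes in both counts. In Rgcc, Tip60 depletion lowered the level by 3.27 from control KD and raised it by 0.39 from Hdac6 KD (adjusted p = 0.0918). In Adssl1 and Ddit4 the Hdac6 effect was −1.50 and −1.58 from control KD and 0.64 and 0.46 from Tip60 KD. In Gbx2 the Tip60 effect was 1.53 and then −0.49, and in Stra8 −1.46 and then 0.74. Dusp27 was in both counts, with a Hdac6 effect of 2.33 and then −0.61 and a Tip60 effect of 2.46 and then −0.48.

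Facts of the whole series bear on these values as follows. The arrays had 21896 to 40609 of 43020 spots well above background. Control KD had the fewest on each slide, 31179 on letter A and 21896 on letter B. The double KD array of letter B had 40276. The background that the scanner software subtracted had medians of 37.2 to 61.0 on letter A and 41.4 to 114 on letter B. The highest of each letter, 61.0 and 114, belonged to control KD. The lowest on letter B, 41.4, belonged to double KD. This background's own double minus Tip60 minus Hdac6 plus control was 25.4 in letter A and −20.2 in letter B. Its part in the terms was not tested, and other background treatments called 2737 to 2848 genes. All 8 ESC markers were above the floor wherever measured, between 2.63 and 7.32. Of 9 fibroblast markers 5 were tested, with a mean level of −1.52 in control KD, −1.24 with the Tip60 hairpin, −1.76 with the Hdac6 hairpin and −1.29 with both. Pdgfrb was the 1 fibroblast gene with a called term, 0.95. The mean of 4 neural markers was −1.08 in control KD, −0.44 with the Tip60 hairpin, −0.88 with the Hdac6 hairpin and −0.53 with both, 1 called negative. The trophectoderm marker Tfap2c had means of 2.12 with the Tip60 hairpin, 3.16 with the Hdac6 hairpin and 2.42 with both, all below control KD, and was called positive. The part of other cell types was not tested. Fewer cells of a type and less RNA per cell cannot be told apart in bulk samples. Of 436 genes with at least 2 called probes, 45 had probes of opposite sign. A 2 by 2 term has 4 residual degrees of freedom here, and the number of arrays limits the precision. Additivity was judged on the log2 scale. On the signal scale 3921 genes were called, of which 3730 were also called on the log2 scale with the same sign.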

How the data were processed

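RNA from the 8 samples was hybridized to 1-color Agilent arrays of 60-base probes. Per the labels and file headers, the authors scanned the arrays and extracted intensities with Agilent Feature Extraction 10.7.1.1, which subtracts background and gives a processed intensity per spot. The authors' deposited value table holds log2 intensities whose rank order on every array is that of the raw median signal, and it was used only as an alternative. Probe positions are mm9. Processed intensities were divided by the array's 75th percentile, set to a floor (log2 −2.71, the highest over arrays of the lowest signal well above background) and log2 transformed. Probes that exceeded both the floor and the software's background call on 2 or more arrays were tested, and a gene was read by its probe with the highest mean. At the floor were 8.82% of values. Of 39429 probes, 27234 had a RefSeq symbol.

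limma 3.58.1 in R 4.3.3 was fitted to all 8 arrays with 1 mean per group and no block, and contrasts were called at an adjusted p below 0.1. The fit was run on simulated data with known terms and errors drawn independently for each array. That simulation lacked the deviations shared within a letter, so it does not test the fit under them. The deviations of arrays with the same letter correlated between groups at 0.65 to 0.80 over 6 pairs of groups, and the letter is the slide, so the letters pair the samples and blocked counts of calls are given beside those of the fit without a block. The alternatives were other background corrections, scalings, floors and filters, probe averaging, a GC correction, and leaving out each array.

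The members, gene lists and tests were chosen with earlier results of these data known. Named genes were Kat5 and Hdac6, the 10 largest positive and negative called terms of 1 sign in both letters and above the floor on all 8 arrays, the 6 largest beyond the sum, the 6 largest on each side outside both singles, 6 with switched direction and up to 4 called members per list. Others are named as picked afterwards or as called members of a list. The summaries of nearness, of the share kept and of list counts under alternatives were added after the data were seen. Unnamed gene models were counted only, and 1 list member is not reported here by name.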

Additional observations from a re-analysis of the deposited data

Results flagged for a closer look

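A single knockdown had opposite directions with and without the other knockdown, the difference being tested by the interaction term, in 6 named genes with the largest terms of this kind. The Tip60 effect differed in Rgcc (term 3.65), Stra8 (2.20) and Gbx2 (−2.02). The Hdac6 effect differed in Dusp27 (−2.95, where the Tip60 effect differed too), Adssl1 (2.14) and Ddit4 (2.04). For Rgcc and Adssl1 the additive level was below the floor, which fixes 2.66 and 1.02 of their terms. The Hdac6 transcript was at 27.3% of control in double KD and 17.8% in Hdac6 KD, and its part in these was not tested.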

How the results depend on the processing

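With the replicate letter as a block, 8532 genes had a called term and 3319 differed between double KD and the mean of the singles, and 8151 and 3124 with the GC trend removed as well. Against an interaction count of 3989 called terms, median scaling gave 0 in limma (1614 at an unadjusted p below 0.05), the low floor 1150, the stricter adjusted p (below 0.05) gave 2517, and requiring an absolute value of 1 or more gave 727. Leaving out 1 array gave 2004 to 2757, the lowest without Hdac6 KD replicate B, and every omission but those of Tip60 KD replicate A and double KD replicate B lowered the count by over 1.5 times. Of the genes, 1674 stayed called in every omission. In all alternatives but median scaling, 840 genes were called with the same sign, 398 of them positive. Against 101 genes outside the mean of the singles (2448 at an unadjusted p below 0.05), the count was 0 with normexp (1903 unadjusted), without background subtraction (1834), with the authors' table (2062), with median scaling (445), with the low floor (1897), with the GC trend removed (1874) and at an adjusted p below 0.05. It was 53 with quantile normalization, 65 with floor values treated as missing, 66 on the signal scale, 171 with the mean of the probes, 328 for genes above the floor on all arrays, 373 with no filter and 4 at an absolute value of at least 1. Leaving out 1 array gave 0 to 7. The cause of these shifts was not tested.

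The uncalled term of Hat1 became 0.47 with the mean of its probes. The term of Ucma became −0.56 with normexp, −0.54 without background subtraction, −0.54 with the authors' table and −1.81 with the low floor. No other named term changed sign in any alternative where either value was called. The other named called terms kept their call or lost it, none by sign, and under median scaling all 139 lost it. For the genes of lowest signal, and for genes at the floor, the terms are limited by signal over background. With 2 arrays per group the call of a single gene can rest on 1 array.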
